A study of Mus musculus with 5 samples.

Results

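The POU homeodomain genes described here are 8 brain-expressed members of classes 2, 3, 4 and 6, taken by gene symbol: Pou2f1, Pou2f2, Pou3f1, Pou3f2, Pou3f3, Pou3f4, Pou4f1 and Pou6f1. All 8 were found among 27919 rows with a gene symbol, and all 8 passed the filter on low counts, so they are among 13989 genes tested. Polyadenylated RNA was sequenced from mouse forebrain at E12.5, in 3 EedcKO and 2 wild-type samples, all C57BL/6, untreated and described as littermates. The EED protein is a core part of Polycomb repressive complex 2, which places a repressive methyl mark on histones. The sources used here do not give the Cre or the cells in which Eed was deleted, or say that each sample was its own embryo. Any p-value therefore measures only the spread between these samples, which may be technical. The comparison asks how loss of Eed changes the transcriptome of the early forebrain.

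POU proteins bind DNA through a paired domain, in which a POU-specific domain is tethered by a linker to a homeodomain, and they often act with SOX partners. In the developing forebrain the class 3 genes mark progenitors and young neurons, Pou4f1 marks a small set of neurons such as those of the habenula, and Pou2f1 is expressed in nearly all tissues. Many developmental homeobox genes are classical targets of Polycomb repression.

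The libraries held 4820630 to 5026381 counts. Eed itself had 251, 233 and 247 counts in EedcKO 1, 2 and 3, against 404 for wild type 1 and 238 for the library labelled wild type 2. The library labelled wild type 2 was therefore at the EedcKO level of the targeted gene, although exons that the deletion spares also add to such a count. It also stood apart in 6 surface epithelium markers, which summed to 17.5, 8.88 and 6.34 CPM (CPM being counts scaled to library size by TMM) in EedcKO 1, 2 and 3, against 11.8 CPM for wild type 1 and 199 CPM for the library labelled wild type 2. Choroid plexus markers summed to 22.3 to 148 CPM in EedcKO, against 120 CPM for wild type 1 and 402 CPM for the library labelled wild type 2. The 39 HOX genes, not normally expressed in forebrain, summed to 85, 184 and 62 counts in EedcKO 1, 2 and 3, against 2 for wild type 1 and 134 for the library labelled wild type 2. All 8 forebrain markers were detected, with sums of 1327, 1340 and 1459 CPM in EedcKO against 1155 and 1171 CPM in wild type. Xist and Y-linked counts marked EedcKO 2 and 3 as male and the other 3 libraries as female. In bulk tissue, fewer cells of a type and less RNA per cell cannot be told apart.

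The class 3 genes, and less closely the class 2 genes, share a short coding stretch within the POU-specific domain. It is shown here because near-identical copies could exchange reads. The longest identical coding stretch between any pair of the 8 genes was 38 bases, between Pou3f1 (chr4:124658589-124658626, plus strand) and Pou3f2 (chr4:22487155-22487192, minus strand, both GRCm38). The best match to it in the other genes follows, read 5′ to 3′ from the GENCODE transcripts, with bases that differ from Pou3f1 in capitals.
Pou3f1: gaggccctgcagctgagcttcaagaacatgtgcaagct
Pou3f2: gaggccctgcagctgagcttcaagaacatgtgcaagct
Pou3f3: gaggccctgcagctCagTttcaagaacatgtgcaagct
Pou3f4: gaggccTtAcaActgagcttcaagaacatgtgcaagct
Pou2f2: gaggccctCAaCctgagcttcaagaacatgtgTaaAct
Pou2f1: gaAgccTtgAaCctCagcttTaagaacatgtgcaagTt
Pou4f1: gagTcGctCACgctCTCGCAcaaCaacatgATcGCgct
Pou3f3 and Pou3f4 differed from Pou3f1 at 2 and 3 of the 38 bases, Pou2f2 and Pou2f1 at 5 and 7, and Pou4f1 at 16. Pou6f1 had no unique match. None of the 28 gene pairs shared a run of 40 coding bases. No source here gives the read length, and the part that shared reads could play in these counts was not tested.

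The levels of the 8 genes spanned a wide range. In the authors' TPM (scaled to library size and gene length), Pou3f3 was the most abundant, with 282, 290 and 311 TPM in EedcKO 1, 2 and 3 and 269 and 231 TPM in wild type 1 and the library labelled wild type 2. Its mean lay above that of 98.3% of genes listed above 0. Pou3f2 followed with 164 ± 3.28 TPM in EedcKO (SD, n = 3) and 139 ± 28.7 TPM in wild type (SD, n = 2). Pou6f1 had 156 ± 1.17 TPM in EedcKO and 144 ± 29.5 TPM in wild type. Pou3f2 was above Pou6f1 in all 3 EedcKO libraries and below it in both wild-type libraries, so 1 order did not hold over all 5. The ratio of their counts was among the 10 of 28 pairs of members that did not overlap between genotypes, described below. Pou6f1 was above the next gene, Pou3f4, in each of the 5 libraries, although their ranges overlapped. Next came Pou3f4 with 106 ± 4.04 TPM in EedcKO and 116 ± 13.5 TPM in wild type, and Pou3f1 with 94.6 ± 16.4 TPM in EedcKO and 98.6 ± 11.4 TPM in wild type. Pou3f4 was above Pou3f1 in each of the 5 libraries, although the ranges over libraries overlapped. Pou2f1 and Pou2f2 lay lower and overlapped, at 44.6 ± 6.91 and 27.7 ± 4.14 TPM in EedcKO, and at 35.3 ± 13.6 and 46.8 ± 23.7 TPM in wild type. Pou4f1 was lowest, at 2.59 to 11.3 TPM over the 5 libraries. The class 3 genes together made up 72.4%, 73.2% and 75.6% of the TPM of the 8 genes in EedcKO, against 70.5% and 74.5% in wild type, so the class shares overlapped between genotypes.

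**Figure D1:**
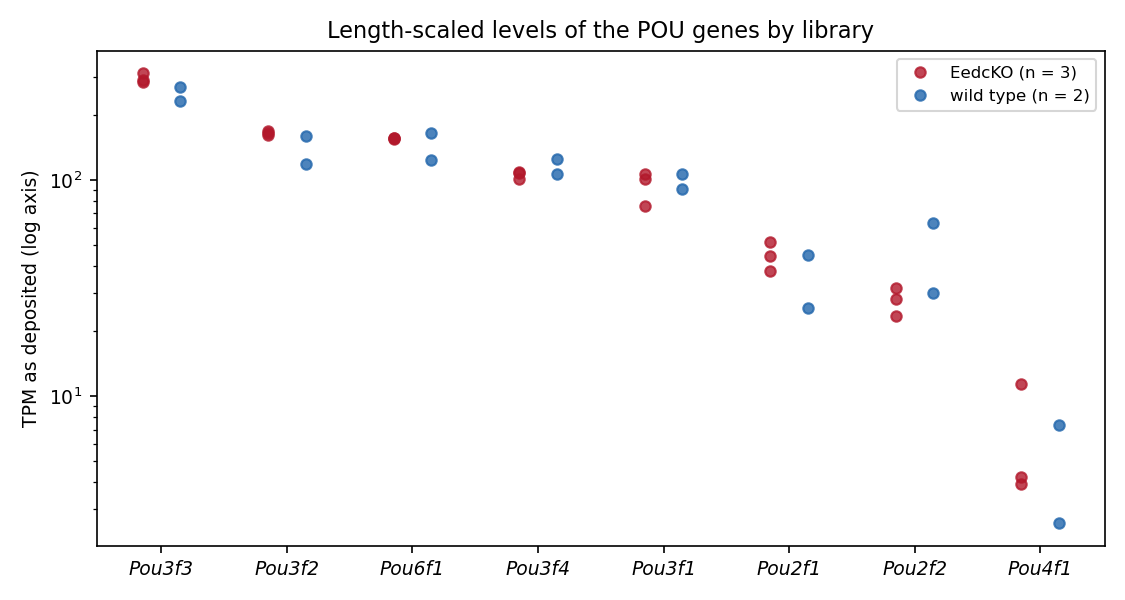
Deposited TPM of each gene (log axis) by library, with EedcKO (n = 3) left of wild type (n = 2) and genes ordered by mean. Pou3f3 lies above the other 7 genes in each library and Pou4f1 below them, while Pou3f2 and Pou6f1 overlap.

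None of the 8 genes passed the test of EedcKO against wild type at an adjusted p of 0.05 (edgeR's quasi-likelihood test with Benjamini-Hochberg adjustment over all 13989 genes), where 3.20% of all tested genes did. At an unadjusted p under 0.05 the edgeR count was 1 of 8, Pou2f2, beside 17.2% of all tested genes. At an adjusted p under 0.05, DESeq2 called 0 of 8, beside 4.85% of all tested genes, and limma-voom 0 of 8, beside 2.85%. At an unadjusted p under 0.05, DESeq2 had 2 of the 8, Pou2f2 and Pou3f3, and 13.4% of all tested genes, and limma-voom had 0 of the 8 and 17.1% of all tested genes. The intervals of the fold changes limit how large a difference these libraries could hide. For the class 3 genes and Pou6f1 the 95% interval of the fold change lay between 0.734 and 1.45. That of Pou2f1 ran from 0.850 to 1.85. That of Pou2f2 ran from 0.356 to 0.972, which leaves out 1 but is not adjusted for the number of genes tested. For Pou4f1 it ran from 0.482 to 3.48, so these libraries did not tell apart fold changes across that range. In 2 of the 8 genes, Pou3f2 and Pou3f3, the groups did not overlap in CPM, which held for 33.8% of all tested genes. Because the Eed count of the library labelled wild type 2 lay at the EedcKO level, values without that library are given beside the genes it moves. In some other genes it lay with wild type 1. Sox10 had 5, 1 and 3 counts in EedcKO 1, 2 and 3, against 42 and 28 in wild type. Tle4 had 518, 476 and 514 counts in EedcKO, against 786 and 747 in wild type. Both genes had passed the test over these same libraries and were picked after their values were seen. Whether the label is right was not tested.

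**Figure D2:**
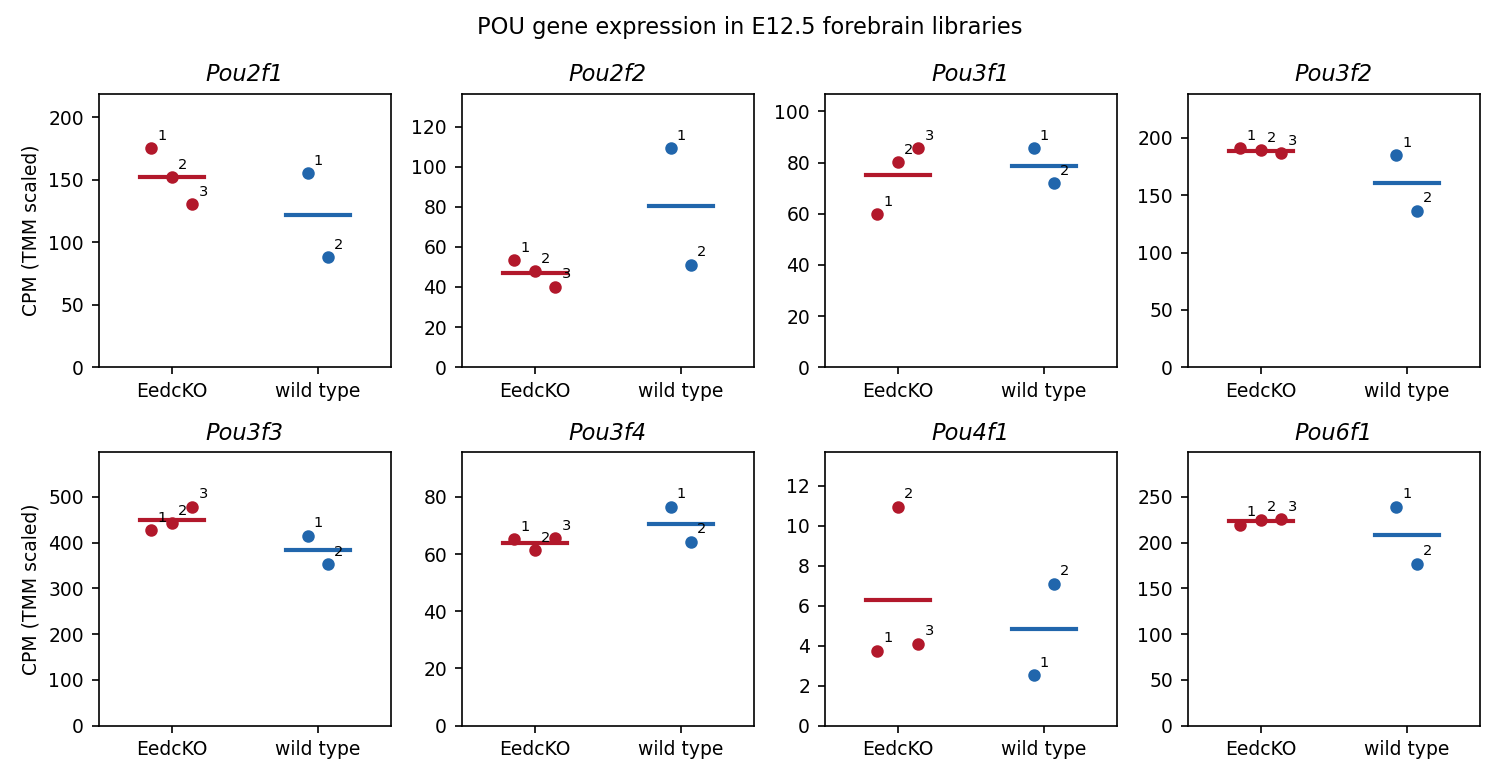
CPM (TMM scaled) of each gene in EedcKO (left) and wild type (right), where points are libraries marked by replicate number and bars are group means. The library labelled wild type 2 is the lowest of the 5 for Pou2f1, Pou3f2, Pou3f3 and Pou6f1, and wild type 1 stands above the other 4 for Pou2f2.

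Among the class 2 genes, Pou2f2, an octamer-binding factor best known from B cells and also present in neurons, had 256, 232 and 196 counts in EedcKO 1, 2 and 3, against 519 for wild type 1 and 252 for the library labelled wild type 2. Scaled, these were 53.3, 47.9 and 40.1 CPM in EedcKO, against 109 and 51.1 CPM in wild type. Wild type 1 was far above all others and the groups overlapped. EedcKO over wild type gave a log2 ratio of -0.76 (SE 0.30, edgeR adjusted p = 0.264). Without the library labelled wild type 2 it was -1.21, and without wild type 1 it was -0.13. The 6 markers of B cells and other leukocytes, none with enough counts to be tested, summed to 2.66 to 4.38 CPM in EedcKO against 6.52 and 6.49 CPM in wild type.

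Pou2f1, the broadly expressed octamer-binding relative, had 841, 736 and 638 counts in EedcKO 1, 2 and 3, against 738 for wild type 1 and 434 for the library labelled wild type 2. The EedcKO libraries lay on both sides of wild type 1, and only the library labelled wild type 2 was below all of them. Its log2 fold change was 0.33 (SE 0.24, edgeR adjusted p = 0.564). It was 0.78 without wild type 1 and -0.02 without the library labelled wild type 2.

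Set against each other within a library, the 2 class 2 genes separated the genotypes more tightly than either did alone. The ratio of Pou2f1 to Pou2f2 counts was 3.29, 3.17 and 3.26 in EedcKO 1, 2 and 3, against 1.42 for wild type 1 and 1.72 for the library labelled wild type 2. The groups did not overlap, and the library labelled wild type 2 lay with wild type 1. The difference in mean log2 ratio was 1.05, beside SDs of 0.026 in EedcKO and 0.195 in wild type. An exact two-sided permutation test over libraries gave p = 0.1, the smallest that 10 assignments of 3 and 2 libraries can give, and adjusted p = 0.35 over the 28 pairs. This pair was singled out after its values were seen. Of all 28 pairs of members, 10 had ratios that did not overlap between genotypes, 4 of them with Pou2f2. This is near the share among pairs of all tested genes with counts in every library, 35.8%. A ratio within a library does not depend on scaling to depth, but it shows unequal change and not which gene changed.

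**Figure D3:**
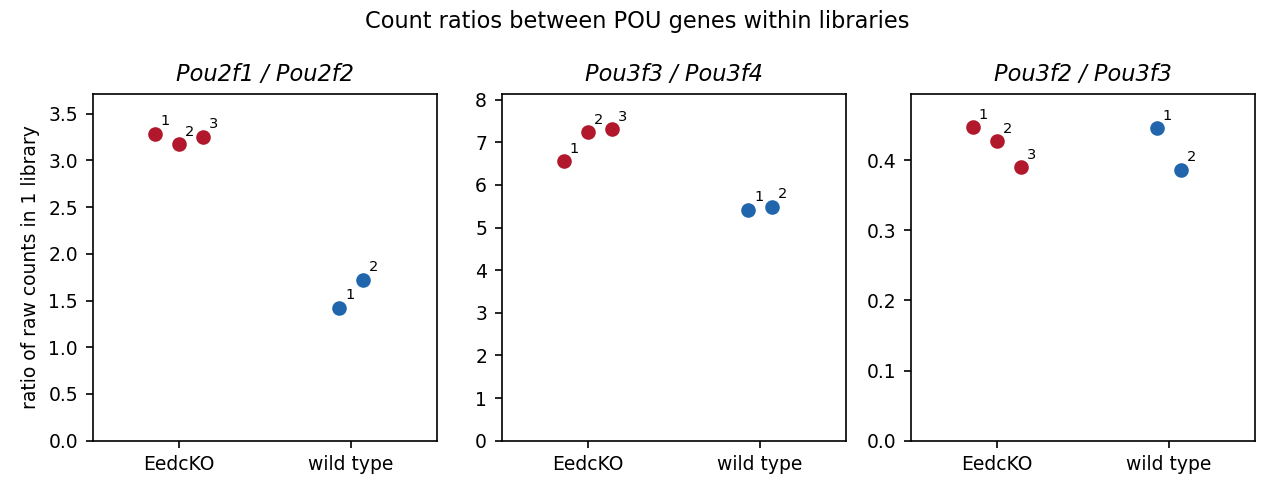
Ratio of raw counts of a pair of genes within each library (points marked by replicate number), EedcKO left of wild type. Pou2f1 over Pou2f2 is 3.17 to 3.29 in EedcKO and 1.42 to 1.72 in wild type, Pou3f3 over Pou3f4 also separates, and Pou3f2 over Pou3f3 overlaps.

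Transcripts that overlap the class 2 genes bear on their counts, since no source here says whether counting used strand. Pou2f1 (chr1:165865154-166002678, minus strand, GRCm38) shares 3007 exonic bases with Cd247 on the opposite strand, which encodes a T cell receptor chain. Cd247 had 271, 226 and 185 counts in EedcKO 1, 2 and 3, against 220 and 152 in wild type, and 0.290 to 0.350 counts per Pou2f1 count in every library. The sum of 7 other T cell genes was 51, 58 and 61 counts in EedcKO against 35 and 62 in wild type. Without strand, reads from Pou2f1 and Cd247 cannot be told apart in that overlap. Pou2f2 (chr7:25087344-25179726, minus strand) contains in its span D930028M14Rik, a long noncoding RNA on the opposite strand (chr7:25152457-25156627) that shares no exonic base with it. D930028M14Rik had 3, 2 and 1 counts in EedcKO 1, 2 and 3, against 32 for wild type 1 and 40 for the library labelled wild type 2. Both wild-type libraries were high and the EedcKO libraries near 0. It fell by 4.09 on the log2 scale (SE 0.47, edgeR adjusted p = 0.00937), and without EedcKO 3 the adjusted p was 0.0915. It was named here after its values were seen.

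The class 3 genes, each a gene without introns, did not pass the test. Pou3f3 (chr1:42695768-42703176), which acts with Pou3f2 in the production and migration of cortical neurons, had 2051, 2148 and 2340 counts in EedcKO 1, 2 and 3, against 1974 and 1742 in wild type. All 3 EedcKO libraries were above both wild-type libraries in CPM, as in 16.4% of all tested genes. The means were 449.8 ± 26.3 CPM in EedcKO (SD, n = 3) and 384 ± 43.7 CPM in wild type (SD, n = 2), which differed by 0.23 on the log2 scale (SE 0.11, edgeR adjusted p = 0.372). Its fold change, 1.17, had a 95% interval of 0.973 to 1.41.

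Pou3f2 (chr4:22482780-22488366), needed also for neuroendocrine neurons of the hypothalamus, had 917, 917 and 912 counts in EedcKO 1, 2 and 3, against 880 for wild type 1 and 673 for the library labelled wild type 2. The EedcKO libraries were nearly equal and wild type 1 lay just below them, at 185 CPM beside 187 to 191 CPM. On the log2 scale the difference was 0.23 (SE 0.13, edgeR adjusted p = 0.428). It was 0.45 without wild type 1 and 0.04 without the library labelled wild type 2.

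Pou3f4 lies on the X chromosome (chrX:110814280-110817207) and is expressed in ventral forebrain and in inner ear mesenchyme. It had 313, 297 and 320 counts in EedcKO 1, 2 and 3, against 364 for wild type 1 and 317 for the library labelled wild type 2. Its log2 fold change was -0.14 (SE 0.11, edgeR adjusted p = 0.593), or -0.11 (SE 0.19) among the female libraries alone. EedcKO 1, the female mutant, had 65.2 CPM, beside 61.3 and 65.5 CPM in the male EedcKO 2 and 3. Markers of otic and head mesenchyme summed to 272 to 561 CPM in EedcKO against 216 and 414 CPM in wild type, and their part in the Pou3f4 count was not tested. Relative to Pou3f4 in the same library, Pou3f3 stood at 6.55, 7.23 and 7.31 counts per count in EedcKO, against 5.42 and 5.50 in wild type. These ratios did not overlap, with p = 0.1 in the exact permutation test and adjusted p = 0.35 over the 28 pairs.

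Pou3f1 (chr4:124656807-124660655), known from myelinating Schwann cells and from deep cortical neurons, had 287, 388 and 418 counts in EedcKO 1, 2 and 3, against 407 and 355 in wild type. The lowest library was EedcKO 1 and the groups overlapped. The log2 fold change was -0.07 (SE 0.16, edgeR adjusted p = 0.888). With embryo sex as a covariate, where EedcKO 1 alone stands against the wild type, it was -0.40 (SE 0.15, edgeR adjusted p = 0.412). Schwann cell and neural crest markers summed to 14.2 to 19.4 CPM in EedcKO against 43.5 and 32.3 CPM in wild type, and Sox10 passed as lower among 3 tested of 6. Their part in the Pou3f1 count was not tested. The antisense gene Gm2164 shares 330 exonic bases with Pou3f1, and their reads cannot be told apart there without strand.

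Long noncoding RNAs lie beside Pou3f3. Pantr1 starts 926 bases from the Pou3f3 start on the opposite strand and had 357, 321 and 321 counts in EedcKO 1, 2 and 3, against 332 and 295 in wild type. Its log2 fold change was 0.09 (SE 0.11, edgeR adjusted p = 0.775). Pantr2 had 182, 161 and 182 counts in EedcKO 1, 2 and 3, against 116 for wild type 1 and 66 for the library labelled wild type 2. Its log2 fold change was 0.94 (SE 0.24, edgeR adjusted p = 0.0856), 0.57 without the library labelled wild type 2 and 1.41 without wild type 1. DESeq2 gave Pantr2 an adjusted p = 0.0252.

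Pou6f1, expressed widely in brain, had 1054, 1090 and 1104 counts in EedcKO 1, 2 and 3, against 1138 for wild type 1 and 873 for the library labelled wild type 2. The EedcKO libraries lay close together, between the wild-type libraries. The log2 fold change was 0.10 (SE 0.13, edgeR adjusted p = 0.768), with an interval of 0.870 to 1.33 for the fold change. Pou4f1, a factor of sensory ganglion and habenula neurons, had 18, 53 and 20 counts in EedcKO 1, 2 and 3, against 12 for wild type 1 and 35 for the library labelled wild type 2. The 95% Poisson interval, which covers counting error only, was 39.7 to 69.3 for EedcKO 2 and 24.4 to 48.7 for the library labelled wild type 2, above that of 6.20 to 21.0 for wild type 1. The highest libraries thus belonged to both genotypes, and the difference of 0.37 on the log2 scale (SE 0.61, edgeR adjusted p = 0.825) was smaller than its error. The 10 markers of cranial sensory ganglia summed to 14.5 to 15.1 CPM in EedcKO against 34.1 and 27.2 CPM in wild type, and Scn9a passed as lower among 4 tested. Markers of midbrain and hindbrain summed to 12.7, 20.2 and 7.57 CPM in EedcKO 1, 2 and 3, against 19.4 and 37.9 CPM in wild type. Gbx2, also listed for habenula and thalamus, gave 77 of the 92 counts of that sum in wild type 1. It had 82 counts in the library labelled wild type 2 and 4, 30 and 4 in EedcKO 1, 2 and 3. The wild type 1 sum therefore rests mostly on 1 gene. Retina markers summed to 7.98 to 11.6 CPM in EedcKO against 6.94 and 21.3 CPM in wild type. The part of these cells in the Pou4f1 count was not tested.

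Among other mouse POU genes, the pluripotency factor Pou5f1 and Pou1f1, Pou2f3, Pou4f2 and Pou5f2 had 1 to 8 counts over all 5 libraries and were not tested, and Pou4f3 had 0, where a count of 0 allows up to 3 in a library.

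**Figure D4:**
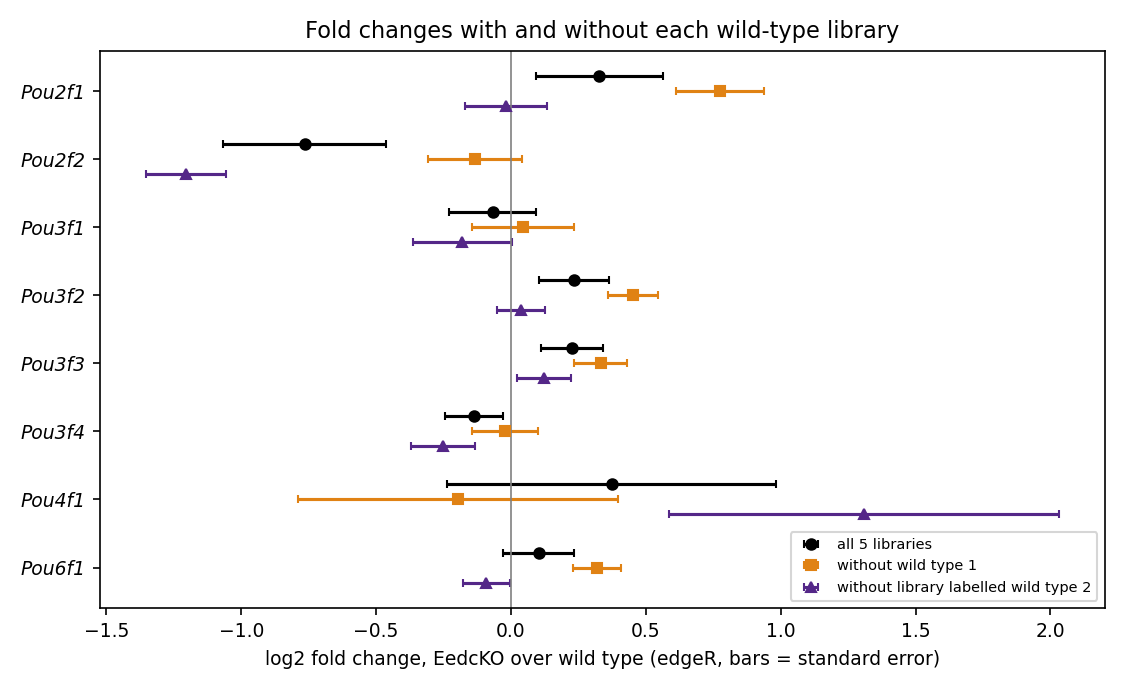
log2 fold change of each gene, EedcKO over wild type, from edgeR with standard errors as bars, over all 5 libraries, without wild type 1 and without the library labelled wild type 2. Pou2f2 is -1.21 without the library labelled wild type 2 and -0.13 without wild type 1, and Pou2f1 is -0.02 and 0.78 in the same fits.

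After TMM scaling, the 2 wild-type libraries differed from each other beyond counting error in all 8 genes and in 36.4% of all tested genes. That share depends on how many counts each gene has. The intervals of Pou3f1 and Pou3f4 started at 1.03 and 1.02, so for them the difference rests on the scaling too. In 7 of the 8 genes wild type 1 had more CPM than the library labelled wild type 2, as had 52.6% of all tested genes. The ratio of wild type 1 to the library labelled wild type 2 was 2.14 for Pou2f2, with an exact 95% binomial interval of 1.83 to 2.49 that covers counting error only. It was 1.76 for Pou2f1 (1.56 to 1.99) and 0.356 for Pou4f1 (0.168 to 0.701). For the class 3 genes and Pou6f1 it ran from 1.18 to 1.36. The highest EedcKO library was 1.02 times the lowest for Pou3f2, 1.03 times for Pou6f1, 1.07 times for Pou3f4 and 2.92 times for Pou4f1. In the fit without the library labelled wild type 2, Pou2f2 alone passed (1 of 8, beside 6.20% of all genes tested there). In that without wild type 1, 2 of 8 passed, Pou2f1 and Pou3f2, both higher in EedcKO, beside 7.02% of all genes tested there. The surface epithelium sum of 199 CPM moves with the low values of the library labelled wild type 2, and its part in them was not tested.

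The genes whose pattern over the 5 libraries lay nearest to that of Pou2f2, the member of smallest p, were Rgs17, Scn3a, Pcdh17, Magel2 and Slitrk3. Distances, Euclidean on centred log2 CPM over 13032 candidate genes, were 0.118 to 0.208. Scn3a, a neuronal sodium channel subunit, had 441, 381 and 310 counts in EedcKO 1, 2 and 3, against 793 and 432 in wild type. Pcdh17, a protocadherin, had 180, 184 and 157 counts in EedcKO against 409 and 189 in wild type. All 5 shared the high value of wild type 1, and none passed the test (edgeR adjusted p between 0.191 and 0.339).

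The promoters of 7 of the 8 genes were matched by symbol to RefSeq (GRCm38.p6, 250 bases before to 50 after the start), with 9 starts in all. Those of Pou2f2, the member of smallest p, and of Pou4f1, the rarest transcript, are shown because they hold the fewest and the most CG dinucleotides among the first listed starts of each gene. CG dinucleotides, which are dense in the promoters of many Polycomb targets, are in capitals.
Pou2f2 promoter: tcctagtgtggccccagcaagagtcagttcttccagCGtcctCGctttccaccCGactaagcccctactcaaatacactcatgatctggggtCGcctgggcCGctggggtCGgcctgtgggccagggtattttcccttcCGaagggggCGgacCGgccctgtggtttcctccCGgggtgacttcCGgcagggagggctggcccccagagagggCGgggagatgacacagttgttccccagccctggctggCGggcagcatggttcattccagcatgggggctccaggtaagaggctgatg
Pou4f1 promoter: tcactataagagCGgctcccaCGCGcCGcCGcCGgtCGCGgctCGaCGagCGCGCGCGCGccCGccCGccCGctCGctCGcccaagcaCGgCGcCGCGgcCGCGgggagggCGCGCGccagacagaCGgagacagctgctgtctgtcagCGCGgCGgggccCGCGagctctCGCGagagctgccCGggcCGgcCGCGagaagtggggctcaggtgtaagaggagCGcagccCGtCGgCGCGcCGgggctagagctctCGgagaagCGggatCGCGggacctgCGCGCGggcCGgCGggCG
The Pou2f2 promoter (chr7:25132411-25132710, minus strand) lies inside the GENCODE span of the gene, whose upstream end is at 25179726, so it is an internal start. It held 13 CG dinucleotides, more than 62.1% of all 32851 promoters in the table. The Pou4f1 promoter (chr14:104467950-104468249, minus strand) held 57, more than 99.8%. Pou3f4, Pou3f3, Pou3f2 and Pou6f1 held 15, 18, 24 and 26, and the most upstream of 3 Pou2f1 starts held 32. The octamer ATGCAAAT, the sequence first described as a POU site, was searched on both strands. It was in 0 of the 9 windows and in 1.74% of all promoters.

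Genes that work with POU factors, or that are known from tissues where they are expressed, held calls in some lists. The tissue names say where the genes are known from, and which cells held their RNA at E12.5 was not tested. Of 13989 genes tested, 1.04% passed as higher and 2.17% as lower in EedcKO, and the median log2 fold change of all genes was 0.007. Of 9 genes listed for upper-layer cortex, a field of Pou3f2 and Pou3f3, 3 passed as higher and none as lower. The median log2 fold change was 0.39. Among them Bhlhe22, a neuronal transcription factor, rose by 1.20 and Plxnd1, a semaphorin receptor, by 0.89 on the log2 scale. Of 9 progenitor genes 3 rose and none fell, namely the transcription factors Gli3 (0.78) and Pax6 (0.65) and the glutamate transporter Slc1a3 (0.68), and the list's median was 0.21. Of 8 deep-layer genes Fezf2 (0.87) and Tbr1 (0.58), both cortical neuron factors, rose, and the corepressor Tle4 (-0.61) fell, with a median of 0.44.

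Of 12 genes of the lateral ganglionic eminence and striatum, a field of Pou3f4, Dlx5, a homeobox factor of inhibitory neurons, fell (-0.92, edgeR adjusted p = 0.0248) and none rose, with a median log2 fold change of -0.41. Of 5 tested genes of the neuroendocrine hypothalamus, where Pou3f2 acts with Sim1 and Otp, Otp fell and none rose. The median was -2.79, and the gene at that median did not pass (edgeR adjusted p = 0.406). The log2 fold changes ran from -8.36 for Otp to -0.22 for Arnt2. Otp had 0, 1 and 1 counts in EedcKO 1, 2 and 3, against 428 for wild type 1 and 85 for the library labelled wild type 2.

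Described POU3 target genes held no call among 4 tested. The Notch ligand Dll1 had 176 ± 5.91 CPM in EedcKO (SD, n = 3) and 153 ± 1.74 CPM in wild type (SD, n = 2). Pmp22, a peripheral myelin gene, had 57, 62 and 57 counts in EedcKO 1, 2 and 3, against 33 and 56 in wild type. The median over these 4 genes was 0.16 on the log2 scale. Nor did any of 9 tested targets and partners of Pou4f1 pass (Ret -1.77, Tac1 -1.11, median -0.31), or any of 11 habenula and thalamus genes (Tac1 -1.11, Gbx2 -2.64, median -0.11). At an unadjusted p under 0.05 edgeR had 1 gene among the 4 POU3 targets (Dll1) and 6 among the 9 Pou4f1 targets and partners. It had 3 among the 11 habenula and thalamus genes, beside 17.2% of all tested genes. DESeq2 called 0 of the POU3 targets and 1 of each of the other lists, Ret and Gbx2, beside 4.85% of all tested genes. A list of POU cofactors and SOX partners had 1 gene lower among 7 tested, with a median of -0.008. With it, 6 of 9 lists held a gene past the threshold over all 5 libraries. The 3.20% of all tested genes that passed is a share of genes and not of lists. Without EedcKO 2, 1 list (habenula and thalamus) held such a gene, and 0.606% of all genes passed. Without EedcKO 3, 0 lists held such a gene, and 0 of all genes passed. The calls in some lists also changed when either wild-type library was left out.

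**Figure D5:**
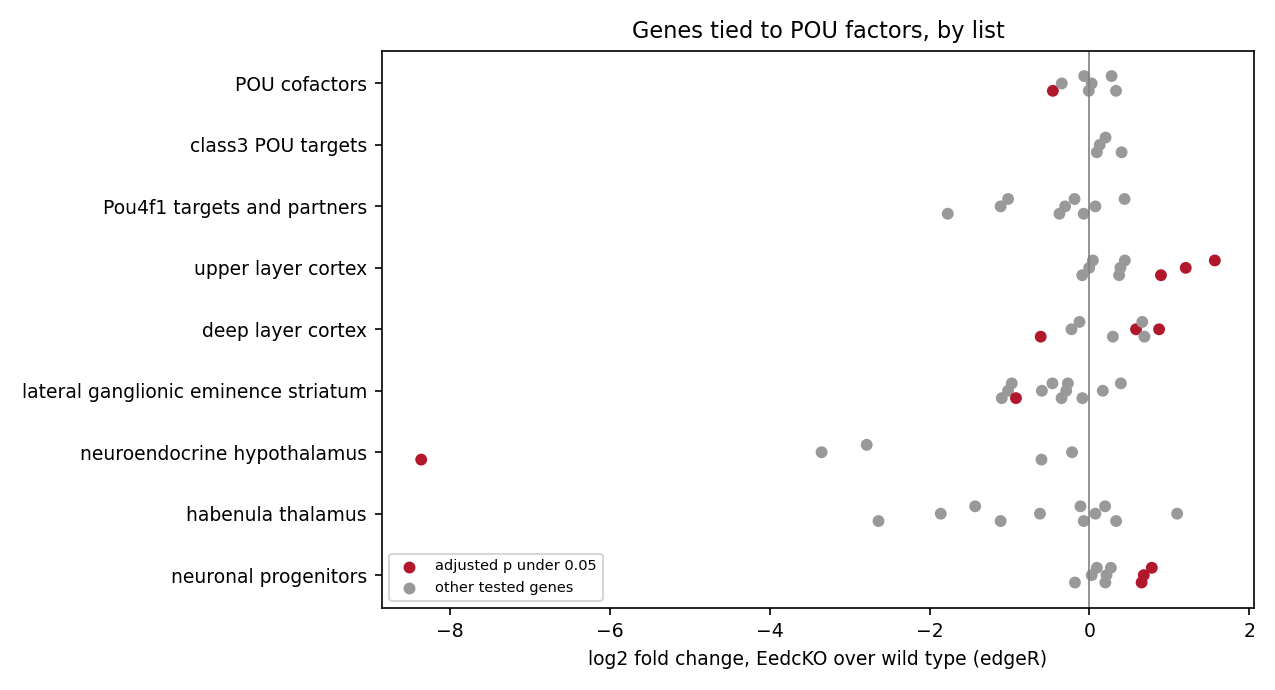
log2 fold change (edgeR, EedcKO over wild type) of every tested gene in the lists tied to POU factors, with genes past an adjusted p of 0.05 in red. The 3 calls in the upper-layer list and 3 in the progenitor list lie above 0, and the leftmost point, Otp, rests on 0, 1 and 1 EedcKO counts.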

How the data were processed

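RNA-seq of mouse forebrain gave 1 library per sample. The submitters' processing notes name HISAT2 2.2.0 and the build mm10. The counting tool, its use of strand and the annotation are unnamed in these sources. The authors deposited whole-number counts per gene (56196 rows, of which 28277 had no symbol and held 2.01% to 2.16% of counts and were left out) and TPM (24926 rows). For symbols on several rows, the row with at least 99% of the counts took the name.

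Counts were tested in R 4.3.3 with edgeR 4.0.16 (filterByExpr, TMM, robust glmQLFit, glmQLFTest on genotype), with Benjamini-Hochberg adjustment over 13989 genes. Intervals of fold changes use the moderated degrees of freedom. The standard error is the log2 fold change over the square root of F. On simulated counts of 13808 genes the fit found 38.8%, 54.7% and 96.8% of genes changed 1.5-fold, 2-fold and 4-fold. Alternatives used DESeq2 1.42.0, limma 3.58.1, other scalings and filters, log2 of TPM, embryo sex, a replicate block and each library left out. Where a fit leaves 1 library in a group, that library is assumed to vary as the others do. A chi-square of 2.61 to 10.8 per gene between any pair of libraries, where sampling noise gives about 1, showed no duplicate. It was 8.21 between the wild-type libraries and 2.61 to 4.75 between EedcKO libraries. Fits that leave 1 wild-type library take their spread from EedcKO alone, so they can understate it. Listed genes were named when past the threshold (up to 4 with the largest change per list), otherwise the 2 of smallest p, and nearest patterns were sought for the member of smallest p among genes whose log2 CPM averaged 1 or more. The members and lists were chosen with earlier results of these data known. Some listed genes are not reported here. Gene positions are from GENCODE (mm10 assembly), 1-based.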

Additional observations from a re-analysis of the deposited data

How the results depend on the processing

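The calls among the 8 POU genes depended on single libraries. With each library left out in turn, 0 to 2 of the 8 passed in edgeR, and 0 to 1012 of all genes. The count of all genes past the threshold was 448 over all 5 libraries, 679 with DESeq2, 203 and 152 with limma-trend on log2 of TPM plus 1 and plus 0.1, and 42 with plus 1 and no filter on low TPM. It was 0 with embryo sex as a covariate, 0 for the female libraries alone and 0 with the replicate number as a block, where edgeR had 1611, 902 and 2169 genes at an unadjusted p under 0.05, and no other tool was run in those designs. Without EedcKO 3 it was 0, with 1886 genes at an unadjusted p under 0.05. The labels do not say that a number marks a shared litter, and same-numbered libraries had deviations correlated by -0.072 and 0.140, so the numbers were not taken as pairs.

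Pou2f2, Pou3f2, Pou3f3 and Pou3f4 kept the sign of their fold change in all 18 alternatives, Pou2f2 from -1.21 to -0.13 and Pou3f3 from 0.12 to 0.33 on the log2 scale. With each library left out in turn, Pou2f1 ranged from -0.018 to 0.78, Pou3f1 from -0.18 to 0.064, Pou4f1 from -0.30 to 1.31 and Pou6f1 from -0.092 to 0.32. Signs turned for genes whose 95% interval included 0 over all 5 libraries. The log2 fold change of Pou4f1 was -0.36 with embryo sex as a covariate, -0.36 among the female libraries, -0.30 without EedcKO 2 and -0.20 without wild type 1. That of Pou3f1 was 0.064 without EedcKO 1 and 0.05 without wild type 1. Without the library labelled wild type 2 it was -0.018 for Pou2f1 and -0.092 for Pou6f1. The causes were not tested. Leaving out each library for the gene lists was chosen after seeing the data. Pou4f1 had few counts, 12 to 53 per library, and its libraries of 1 genotype also differed beyond counting error. Only 2 wild-type libraries limit every gene.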
